A study of Mus musculus with 4 samples.

Results

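GABA, the main inhibitory transmitter of the brain, is made from glutamate, loaded into synaptic vesicles, released and taken up again. Gad2 encodes glutamate decarboxylase 65, an enzyme of GABA synthesis at nerve terminals. Slc32a1 encodes the vesicular transporter VGAT, which fills vesicles with GABA. Slc6a11 encodes the plasma membrane transporter GAT3, which carries GABA from the extracellular space into cells and in the brain is found mainly on astrocytes. The projection neurons of the striatum, the medium spiny neurons, release GABA, as do its interneurons, whereas most neurons of the cerebral cortex release glutamate. These 3 genes were taken by name from the 383 genes of the probe panel, as genes of GABA synthesis, vesicle filling and uptake. All 3 passed the low-count filter in each neuron and astrocyte comparison reported here.

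The genes were measured by MERFISH, an imaging method that counts single RNA molecules in place, in 4 coronal sections of wild-type C57BL/6NTac mice that received no treatment. The groups were 2 sections from young mice (2 months), called young 1 and young 2, and 2 sections from aged mice (18 months), called aged 1 and aged 2. Each section held the striatum of both hemispheres with the cortex, white matter and midline regions around it. The study's methods call its replicates biological, but the labels do not tie the sections to animals and give no sex. The p-values measure the spread between these sections.

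Between 68011 and 74624 cells per section were kept, 281824 in all, and no cell identifier was shared between sections. The kept cells held 36035355 transcripts in young 1, 31172121 in young 2, 18765491 in aged 1 and 29004185 in aged 2, with medians per cell of 400, 325, 215 and 293. Young 1 stood apart in its anatomy, since it held 46 squares of white matter used as the callosum landmark, against 209 to 256 in the other sections, so that the sections may lie at different levels of the brain. Cells were grouped with all 3 genes left out of the clustering and of every marker list, and each class carries the name of its markers. The medium spiny neuron-like, other neuron-like, astrocyte-like, oligodendrocyte-like, oligodendrocyte precursor-like, microglia-like and vascular-like cells are called spiny neurons, non-spiny neurons, astrocytes and so on below. Levels are given per 10000 transcripts of all panel genes in the same cells, summed over the cells of a section, so that a level is a share of the panel and not a number per cell.

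In the mouse genome (build GRCm38, GENCODE annotation) Gad2 lies on chromosome 2 at chr2:22622205-22693874 on the plus strand, with 16 exons in its largest transcript. Slc32a1 lies on the same chromosome at chr2:158610767-158615748 on the plus strand, with 2 exons. Slc6a11 lies at chr6:114131241-114249952 on the plus strand, with 14 exons. The probe sequences were not used here.

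The promoter windows of the genes are shown because 2 of them, Gad2 and Slc32a1, share a neuronal pattern over the cell classes and Slc6a11 has an astrocytic one. Each window runs from 250 bases before to 50 bases after the RefSeq transcript start (build GRCm38.p6, plus strand). The windows are chr2:22622077-22622376 for Gad2, chr2:158610508-158610807 for Slc32a1 and chr6:114130991-114131290 for Slc6a11. Capitals mark the letters CCAAT, the CCAAT box, in Gad2 and GGGCGG or its reverse complement, the GC box, in Slc6a11.
Gad2: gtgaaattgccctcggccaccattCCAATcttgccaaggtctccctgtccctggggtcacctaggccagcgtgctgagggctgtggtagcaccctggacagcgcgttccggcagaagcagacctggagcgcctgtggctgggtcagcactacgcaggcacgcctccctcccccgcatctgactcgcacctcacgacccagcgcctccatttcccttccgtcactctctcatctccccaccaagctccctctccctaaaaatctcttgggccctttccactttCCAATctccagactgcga
Slc32a1: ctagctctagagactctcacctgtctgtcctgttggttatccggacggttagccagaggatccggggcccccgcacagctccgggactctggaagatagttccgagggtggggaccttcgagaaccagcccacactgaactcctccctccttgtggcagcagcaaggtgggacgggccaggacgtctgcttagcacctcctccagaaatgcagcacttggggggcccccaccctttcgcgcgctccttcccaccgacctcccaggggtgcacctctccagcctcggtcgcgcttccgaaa
Slc6a11: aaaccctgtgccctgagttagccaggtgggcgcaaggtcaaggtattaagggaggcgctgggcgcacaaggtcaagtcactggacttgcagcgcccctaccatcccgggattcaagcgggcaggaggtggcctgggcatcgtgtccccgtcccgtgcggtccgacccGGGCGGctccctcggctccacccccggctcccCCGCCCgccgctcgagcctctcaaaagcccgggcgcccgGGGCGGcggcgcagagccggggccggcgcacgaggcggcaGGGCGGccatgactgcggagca

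Both strands of each window were searched for 4 sets of letters. CCAAT was found 2 times in Gad2, and 37.4% of all 32851 mouse promoter windows of this length hold it. GGGCGG was found 4 times in Slc6a11 (35.7% of windows hold it). The TATA box TATAAA (13.6%) and the homeobox core TAATTA (5.29%), which DLX-type factors are known to bind, were in none of the 3 windows. The GC content was 61.3% for Gad2, 63.3% for Slc32a1 and 72.3% for Slc6a11, against a median of 52.7% over all windows. These matches describe letters and not sites in use, and no letter set searched was common to Gad2 and Slc32a1.

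Gad2 was highest in the 2 neuron classes. Spiny neurons held 103, 73.2, 78.7 and 104 transcripts of Gad2 per 10000 in young 1, young 2, aged 1 and aged 2, a mean of 89.8 ± 16.1 (SD, n = 4 sections). Non-spiny neurons of the whole section held 56.8, 42.0, 35.8 and 57.3 (48.0 ± 10.8). In both classes young 1 and aged 2 were the higher sections and young 2 and aged 1 the lower ones, so the sections split across the ages. Among the other classes the mean level of Gad2 was 15.9 ± 3.50 in vascular cells, 12.7 ± 3.12 in oligodendrocyte precursors, 10.2 ± 1.90 in astrocytes, 7.15 ± 1.98 in microglia and 4.47 ± 0.984 in oligodendrocytes. Neighbours in this order from vascular cells down to microglia overlapped in their section values. Microglia are not known as GABA-making cells, and their level was taken as a reference. Spiny neurons lay 10.2 to 16.9 times above it, and 16.0 to 24.4 times above oligodendrocytes. When each cell was thinned to 100 transcripts, between 48.5% and 62.1% of spiny neurons held a Gad2 transcript, against 4.03% to 6.84% of microglia. Before thinning the spiny shares were 66.8% to 85.7% at medians of 213 to 368 transcripts per cell, and the microglial shares 3.83% to 7.17% at 62 to 99.

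Slc32a1 was a rare transcript in these data. Its levels were 5.86, 7.14, 7.48 and 6.998 per 10000 in spiny neurons and 4.79, 4.77, 3.94 and 4.25 in non-spiny neurons. Spiny neurons were above non-spiny neurons in 4 of 4 sections, with no overlap. The 5 non-neuronal classes had mean levels of Slc32a1 between 2.09 ± 0.403 in oligodendrocytes and 2.95 ± 0.630 in oligodendrocyte precursors (SD, n = 4 sections), and neighbours in their order overlapped. Spiny neurons held 2.39 to 3.11 times the level in microglia and 2.25 to 4.09 times that in oligodendrocytes. Thinned to 100 transcripts, 5.68% to 7.52% of spiny neurons and 1.44% to 3.02% of microglia held a Slc32a1 transcript, and the unthinned shares were 16.5% to 21.5% and 2.30% to 2.72%.

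Slc6a11 followed the astrocytes. They held 311, 285, 286 and 276 transcripts of Slc6a11 per 10000, a mean of 290 ± 15.1 (SD, n = 4 sections). The border zone, described with the other zones below, held 2284, 2991, 2651 and 2508 of the 4706, 6292, 5637 and 5399 astrocytes, at 243, 212, 238 and 226. In the astrocyte cluster of 34757 cells 3 of 5 neuroblast markers stood above 1.5 times their level in the other cells, against 0 of 5 in the astrocyte cluster of 24275 cells that a finer clustering gave. With the finer clusters Slc6a11 was at 318, 278, 287 and 278 in the striatum, 538, 480, 431 and 423 in the other grey matter and 137, 124, 199 and 160 in the white matter. In the border zone the finer clusters gave a much higher level in each section, printed with the zones below. The level of the whole class thus depends on the clustering. Oligodendrocyte precursors came next at 47.1, 45.9, 72.6 and 100, overlapping with vascular cells at 54.2, 52.3, 64.8 and 51.7. Microglia (21.98 ± 7.56) and non-spiny neurons (19.1 ± 2.77) overlapped as well, oligodendrocytes held 11.3 ± 2.51, and spiny neurons held the least, 5.10, 5.22, 7.58 and 5.81. Astrocytes lay 37.7 to 61.0 times above spiny neurons and 2.76 to 6.61 times above oligodendrocyte precursors. The summed level of 7 astrocyte markers in the precursors was 343 to 607 per 10000 and in vascular cells 403 to 510, against 2547 to 2657 in striatal astrocytes. Those marker transcripts stand beside the Slc6a11 values of these classes, and their part in them was not tested. Thinned to 100 transcripts, 66.9% to 72.6% of astrocytes held an Slc6a11 transcript, against 5.68% to 7.45% of spiny neurons.

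**Figure D1:**
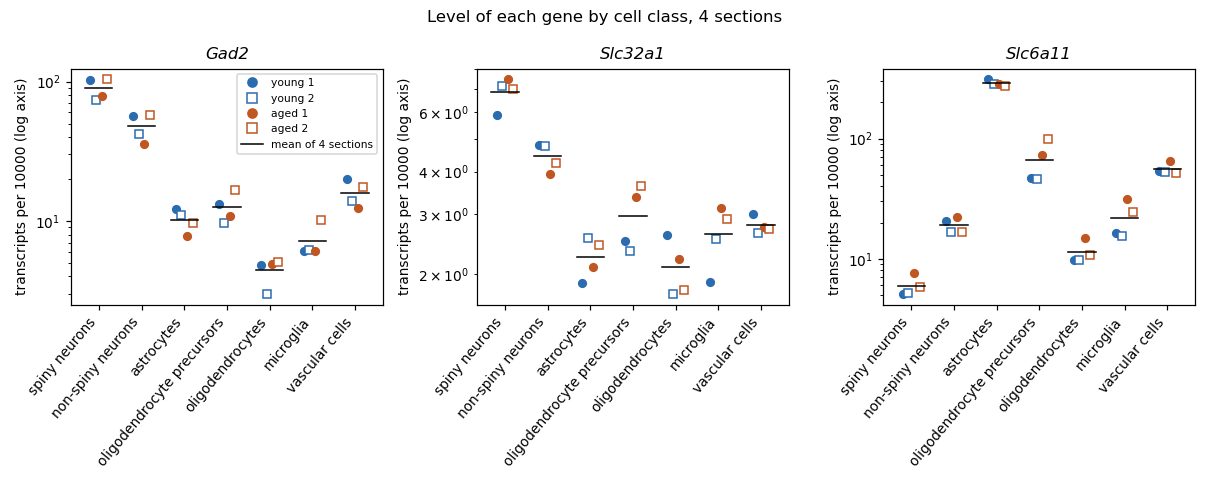
Levels of Gad2, Slc32a1 and Slc6a11 in 7 cell classes, in transcripts per 10000 panel transcripts on log axes whose ranges differ between panels; each point is 1 section and bars are means of 4 sections. Gad2 and Slc32a1 were highest in spiny and non-spiny neurons, and Slc6a11 in astrocytes, where the 4 sections lay between 276 and 311.

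The panel genes whose mean levels followed each gene most closely over the 7 classes were ranked by Pearson's r on log2(level + 1). For Gad2 they were Elmod1 (r = 0.99), Nsg2 (0.99), Ndrg4 (0.98), Scg2 (0.98) and Plppr4 (0.97). For Slc32a1 they were Arpp21 (0.97), Atp2b1 (0.96), Gad2 (0.96), Drd1 (0.96) and Elmod1 (0.96). For Slc6a11 they included clusterin Clu (0.98), the thyroid hormone deiodinase Dio2 (0.96), the gap junction gene Gja1 (0.95) and the transcription factor Sox9 (0.95). Several of these genes helped to define the classes, the classes share sections and depth, and each r rests on 7 points.

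Over whole sections Gad2 was higher in spiny than in non-spiny neurons, with a ratio of the levels between 1.74 and 2.20 in the 4 sections. With the section as a block the difference was 1.28 ± 0.07 on the log2 scale (SE; edgeR quasi-likelihood test, adjusted p = 4.12e-08). Slc32a1 was higher in spiny neurons too, by 0.997 ± 0.10 (edgeR, adjusted p = 6.2e-06). These calls stand against a background in which 75.5% of the 383 genes tested differed between the classes, 43.1% being higher and 32.4% lower in spiny neurons. As folds the fitted differences are 2.435 for Gad2 and 1.996 for Slc32a1. Both lie above the ratio of the levels in each section, which was 1.22 to 1.90 for Slc32a1. The fits rescale the sums by TMM factors and the levels do not, so fitted differences here and below need not equal ratios of levels. Of the 4 listed genes of GABA lineage and glutamine supply, Dlx6os1, a transcript of the Dlx locus, was higher in spiny neurons by 1.33 on the log2 scale and Meis2, a transcription factor gene of the ventral forebrain, by 2.05. Slc38a1, which imports glutamine, fell by 0.95 and the RNA-binding protein gene Elavl2 by 3.26. Of the 4 vesicle and release genes, the fit gave Cplx2 (0.26) and Rims2 (0.29) as higher in spiny neurons. Syp (-1.72) was among the 2 that were lower. In most sections the levels of Cplx2 and Rims2 were instead lower in spiny neurons. With the young sections first, Cplx2 was at 168, 185, 187 and 187 in spiny and 178, 179, 220 and 211 in non-spiny neurons. Rims2 was at 42.8, 39.7, 50.3 and 43.2 against 42.2, 43.9, 53.7 and 46.3. The direction for these genes thus depends on the rescaling. The lists' medians were 0.19 and -0.10, against 0.11 over all genes.

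The direction turned inside the striatum. The outlined striatum held 8633, 7795, 9284 and 8188 spiny neurons and 489, 372, 479 and 500 non-spiny neurons in young 1, young 2, aged 1 and aged 2. There the non-spiny neurons held 169, 114, 114 and 151 transcripts of Gad2 per 10000, and the spiny neurons 98.9, 65.4, 74.8 and 98.9. Spiny neurons were below non-spiny neurons in 4 of 4 sections, with a mean ratio of 0.618 ± 0.0455 (SD). For Slc32a1 the non-spiny neurons of the striatum held 10.8, 12.01, 13.5 and 10.3 and the spiny neurons 5.86, 6.61, 7.49 and 7.11, a ratio of 0.585 ± 0.0716. In a fit added after the data were seen and limited to the striatum, Gad2 fell by 0.48 (adjusted p = 2.3e-05) and Slc32a1 by 0.56 (adjusted p = 0.000325, edgeR) from non-spiny to spiny neurons on the log2 scale. In that fit 62.9% of the 383 genes differed and 31.3% were lower in spiny neurons, so the call alone does not set the 2 genes apart from the panel.

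The non-spiny class joined neurons of unlike kind, which its position showed. Outside the striatum, in what is called here the other grey matter (surroundings of radius 150 µm with non-spiny neurons making up 40% of cells or more), its Gad2 level was 44.8, 34.8, 26.3 and 45.6 per 10000, and at the striatal border 148, 116, 102 and 151. The other grey matter held most of the class, 7433 to 10610 cells per section. Its Slc32a1 level there was 4.21, 3.98, 2.91 and 3.58.

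Clustering of the neurons alone, again without the 3 genes, parted the Gad2-poor from the Gad2-rich cells. A sub-cluster of 18382 cells led by Cd34, Rorb and Cxcl12 lay to 96.5% in the other grey matter and held 7.08, 4.94, 5.52 and 8.005 transcripts of Gad2 per 10000, overlapping with the microglial levels of 6.13 to 10.1. Its Slc32a1 level was 1.24, 0.804, 0.945 and 1.04, below that of microglia in every section. The maps show these Gad2-poor neurons over the cortex. Rorb is a marker of cortical layer 4 neurons.

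A sub-cluster of 9232 cells led by Ano1, Egfr and Sst was the richest in Gad2 of all 8 sub-clusters in each section. It held 189, 146, 133 and 192 transcripts of Gad2 per 10000, between 24.0 and 29.6 times the level in the Cd34, Rorb and Cxcl12 sub-cluster, and 13.7, 15.8, 12.8 and 12.9 of Slc32a1 (11.05 to 19.7 times). Sst encodes somatostatin, a peptide of a group of GABA neurons. Of its cells 66.8% lay in the other grey matter, 20.6% at the border and 11.8% in the striatum. The spiny neurons fell mainly into a sub-cluster of 19581 cells led by Pde10a, Penk and Drd1 (Gad2 100, 70.8, 79.7 and 99.7) and one of 22900 shallower cells led by Pcp4l1, Dlx6os1 and Rgs9 (121, 79.9, 79.5 and 115). A sub-cluster of 17803 cells with a median of 95 transcripts, led by Tnni1, Gja1 and Fxyd5, held 29.5, 24.2, 20.6 and 33.1, and Gja1 is an astrocyte marker. Of the 3 smallest sub-clusters, those of 1145 and 658 cells were led by vascular or glial genes (Slco1c1, Adgrf5 and Adgrl4; Mal, Cxcl1 and Fzd2) and stayed without a name, 535 of the 658 cells came from young 1, and the smallest had 79 cells.

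**Figure D2:**
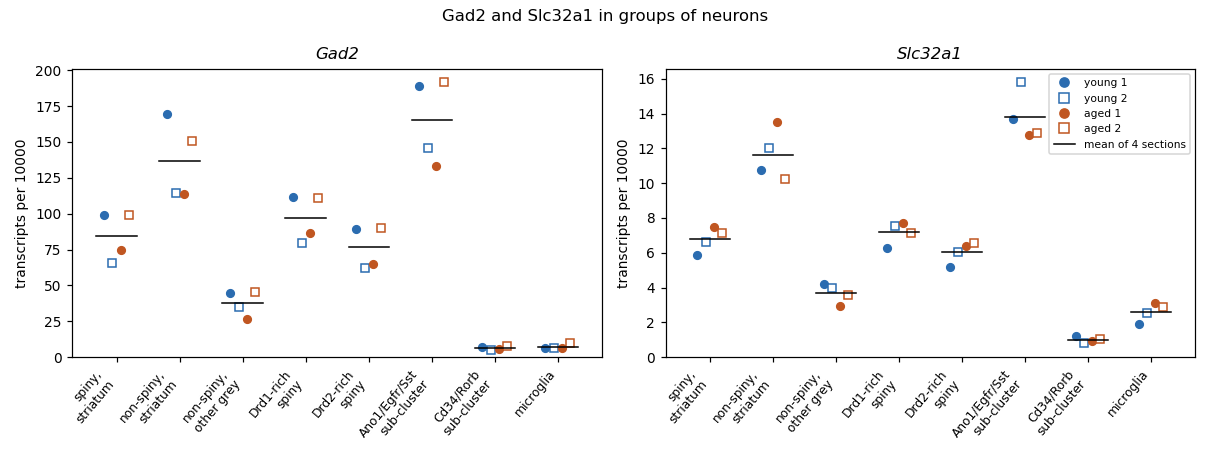
Levels of Gad2 (left) and Slc32a1 (right) in groups of neurons and, for reference, in microglia, in transcripts per 10000 panel transcripts; points are sections and bars the means of 4 sections. In both panels non-spiny neurons of the striatum lie above spiny neurons, and the Cd34/Rorb sub-cluster overlaps with microglia for Gad2 and lies below them for Slc32a1.

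Spiny neurons come in a pair of kinds, those with the dopamine receptor Drd1 that project mainly to the output nuclei and those with Drd2 that project to the external pallidum. They were split by whether a cell held more transcripts of Drd1 or of Drd2 plus Gpr6, which gave 22183 Drd1-rich and 15408 Drd2-rich cells and left out 8213 ties. The split is a range rather than a class, since 21335 of the 45804 spiny neurons (46.6%) lay within 2 transcripts of the dividing line. Drd1-rich cells held 111, 79.8, 86.3 and 111 transcripts of Gad2 per 10000 and Drd2-rich cells 89.6, 62.1, 65.2 and 90.2. Drd1-rich cells were higher in 4 of 4 sections, by 1.23 to 1.32 times. The difference on the log2 scale was 0.25 ± 0.02 (SE; edgeR, section as a block, adjusted p = 4.86e-08), with 61.4% of the 383 genes called, 29.2% higher and 32.1% lower in Drd1-rich cells. As a fold this fitted difference is 1.19, below the ratio of the levels in each section. For Slc32a1 the levels were 6.25, 7.56, 7.72 and 7.13 against 5.15, 6.03, 6.40 and 6.54, a difference of 0.15 ± 0.05 (edgeR, adjusted p = 0.00847). The ties held 122, 79.7, 83.5 and 121 of Gad2.

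The difference in Gad2 between the kinds stood in both parts of the striatum, with ratios of 1.11 to 1.14 in its dorsal part and 1.21 to 1.30 in its ventral part. For Slc32a1 the ratio was 0.994 to 1.07 dorsally and 1.09 to 1.37 ventrally. In the GABA lineage list Slc38a1 (0.18 on the log2 scale), Dlx6os1 (0.62) and Elavl2 (0.24) were higher in Drd1-rich cells, and Meis2 fell by 0.33. In the vesicle list Syp, the synaptic vesicle protein synaptophysin (0.54), Cplx2 (0.19) and Rims2 (0.36) were higher. The lists' medians were 0.21 and 0.28 and that of all genes -0.02.

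Gad2 in spiny neurons rose from the dorsal to the ventral striatum. In 6 segments of 500 µm from the dorsal edge, Gad2 went in young 1 from 66.8 to 70.8, 75.1, 104, 131 and 118 per 10000. In young 2 the segments held 49.7, 53.5, 55.1, 74.1, 80.6 and 87.9, in aged 1 they held 43.7, 45.1, 53.6, 85.7, 108 and 92.5, and in aged 2 they held 75.4, 77.4, 85.7, 117, 114 and 124. The largest step lay between the third and the fourth segment in each section, and the last 3 segments were all above the first 3 of the same section. The striatum of each hemisphere was also parted midway between its dorsal and ventral ends. Dorsal levels of Gad2 were 74.8, 53.3, 48.4 and 82.2 and ventral levels 120, 79.1, 95.3 and 118. The ratio was between 1.44 and 1.97, and the difference was 0.58 ± 0.08 on the log2 scale (SE; edgeR, section as a block, a fit added after the data were seen, adjusted p = 1.02e-05), with 39.4% of the 383 genes called and 19.8% higher ventrally.

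Slc32a1 did not pass the same test. Its dorsal levels were 5.37, 5.61, 7.45 and 6.84 per 10000 and its ventral levels 6.29, 7.76, 7.52 and 7.42, with ratios of 1.01 to 1.38 and a difference of 0.10 ± 0.08 (edgeR, adjusted p = 0.354). With library totals in place of TMM the same difference was 0.21 and passed (edgeR, adjusted p = 0.0404). Beside the rise of Gad2, the summed level of 9 spiny neuron markers was between 1878 and 2080 per 10000 dorsally and between 1339 and 1542 ventrally. That of 7 general neuron markers was between 1438 and 1677 dorsally and between 1899 and 2249 ventrally. The median transcripts per cell were 227 to 404 and 220 to 368. The part of these in the Gad2 difference was not tested. Among the listed genes Dlx6os1 (0.52), Elavl2 (0.28), Syp (0.99) and Rims2 (0.40) rose ventrally as well and Cplx2 fell by 0.16, whereas Slc38a1 (-0.03) and Meis2 (-0.06) did not pass the test.

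**Figure D3:**
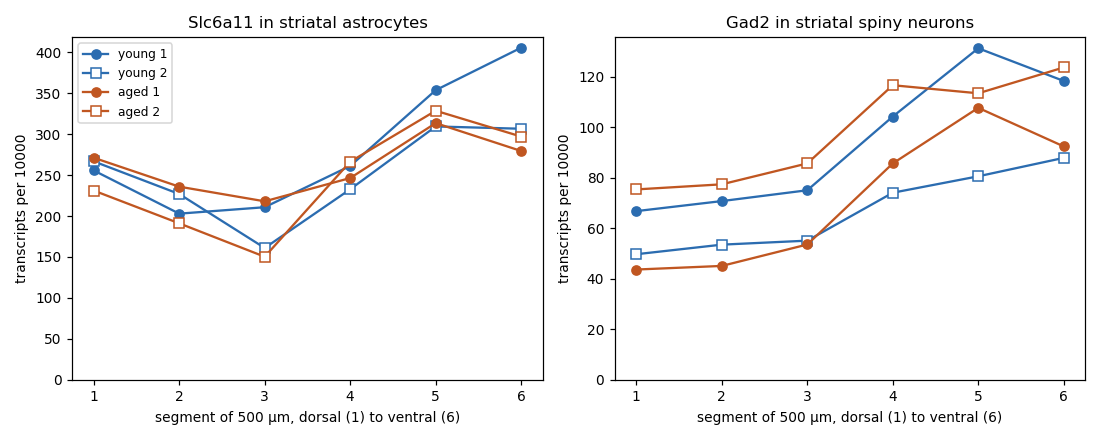
Slc6a11 in striatal astrocytes (left) and Gad2 in striatal spiny neurons (right) over 6 segments of 500 µm from dorsal to ventral, in transcripts per 10000 panel transcripts; each line is 1 section. Gad2 rises after the third segment in all 4 sections, whereas Slc6a11 is lowest in the second or the third segment and highest in the fifth or the last.

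In astrocytes of the striatum Slc6a11 followed a different course along this axis. Its level in young 1 was 256, 203, 211, 261, 354 and 406 per 10000 from the dorsal to the ventral segment. The segments held 267, 227, 161, 233, 309 and 307 in young 2, and 271, 236, 218, 246, 314 and 279 in aged 1. In aged 2 they held 231, 191, 150, 266, 329 and 297. The lowest segment was the third in 3 sections and the second in young 1, and the fifth segment was 1.44 to 2.19 times the third. Each value rests on 66 to 251 astrocytes.

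Between the striatal parts, dorsal astrocytes held 211, 202, 235 and 178 transcripts of Slc6a11 per 10000 (387 to 426 cells) and ventral astrocytes 342, 283, 284 and 316 (418 to 454 cells). Ventral astrocytes were higher in 4 of 4 sections, by 1.21 to 1.77 times, and the groups of values did not overlap. The difference was 0.65 ± 0.09 on the log2 scale (SE; edgeR, section as a block, adjusted p = 0.00512). In this fit 9.56% of the 293 genes tested differed, 5.8% being higher and 3.75% lower ventrally, and Slc6a11 ranked 3 by p-value. With the striatum outlined at a share of 50% spiny neurons in place of 40%, the difference was 0.31 and lost its call (edgeR, adjusted p = 0.0842), and without aged 1 3 genes were called, Slc6a11 among them (edgeR, adjusted p = 0.0414).

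The astrocyte marker list was at 2402 to 2626 per 10000 dorsally and 2605 to 2700 ventrally, and the neuron list at 115 to 176 and 130 to 200. Of 14 tested genes of astrocyte transport and homeostasis, Gja1 rose ventrally by 0.29 on the log2 scale. Of the 3 that fell, Prodh, an enzyme of proline breakdown, fell by 0.32 and Dio2 by 0.65. The list's median was 0.07 and that of all genes -0.03.

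Over the whole section Slc6a11 in astrocytes differed by zone. Astrocytes of the striatum (825 to 850 cells per section) held 281, 241, 263 and 247 transcripts of Slc6a11 per 10000. Those of the white matter (270, 276, 434 and 346 cells), drawn by the same share of oligodendrocytes, held 114, 98.4, 179 and 148. Those of the other grey matter (1304 to 2200 cells) held 513, 452, 410 and 396. White matter astrocytes were lowest and other grey matter astrocytes highest in 4 of 4 sections, with no overlap between striatum, white matter and other grey matter. The border zone, given below, overlapped with the striatum.

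From the striatum to the white matter Slc6a11 fell by 0.86 ± 0.18 on the log2 scale (SE; edgeR, section as a block, adjusted p = 0.00237), where 36.8% of the 315 genes tested differed, 19.7% being higher and 17.1% lower. In the other grey matter it was higher by 0.80 ± 0.06 (edgeR, adjusted p = 6.17e-06), where 37.9% of the 359 genes tested differed, 18.1% being higher and 19.8% lower. With the zone drawn at a share of 60% the difference was 0.47 and kept its call. In the white matter the astrocyte list stood at 2004 to 2387 per 10000 and the neuron list at 62.1 to 138, against 135 to 187 in the striatum. The oligodendrocyte list was at 49.3 to 72.7 there and 20.8 to 31.5 in the striatum, and the precursor list at 16.1 to 33.1 and 12.4 to 16.2. In the other grey matter the precursor list was at 25.9 to 32.1. The spiny neuron list was at 34.4 to 47.2 there, against 93.6 to 127 in the striatum. The part of these lists in the Slc6a11 differences was not tested. The border zone between these areas held 243, 212, 238 and 226 (2284 to 2991 cells). With finer clusters, which left 1068 to 1350 astrocytes in the border, it held 431, 415, 429 and 435.

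Other astrocyte genes divided by zone in their own ways. In white matter Gfap, the intermediate filament of fibrous astrocytes, was higher by 4.11 on the log2 scale, the water channel gene Aqp4 by 0.76 and the lactate transporter gene Slc16a1 by 0.97. Plpp3 fell by 0.74, F3 by 0.52 and Slco1c1 by 1.29, so that 4 of 14 tested genes of the list were higher and 3 lower. In the other grey matter 8 of 15 genes were higher, Dio2 by 0.69, S100b by 0.47, F3 by 0.39 and Gfap by 1.08 among them, and 2 were lower, with Plpp3 at -0.16. The lists' medians were 0.11 and 0.32, and those of all genes tested 0.05 and -0.02.

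**Figure D4:**
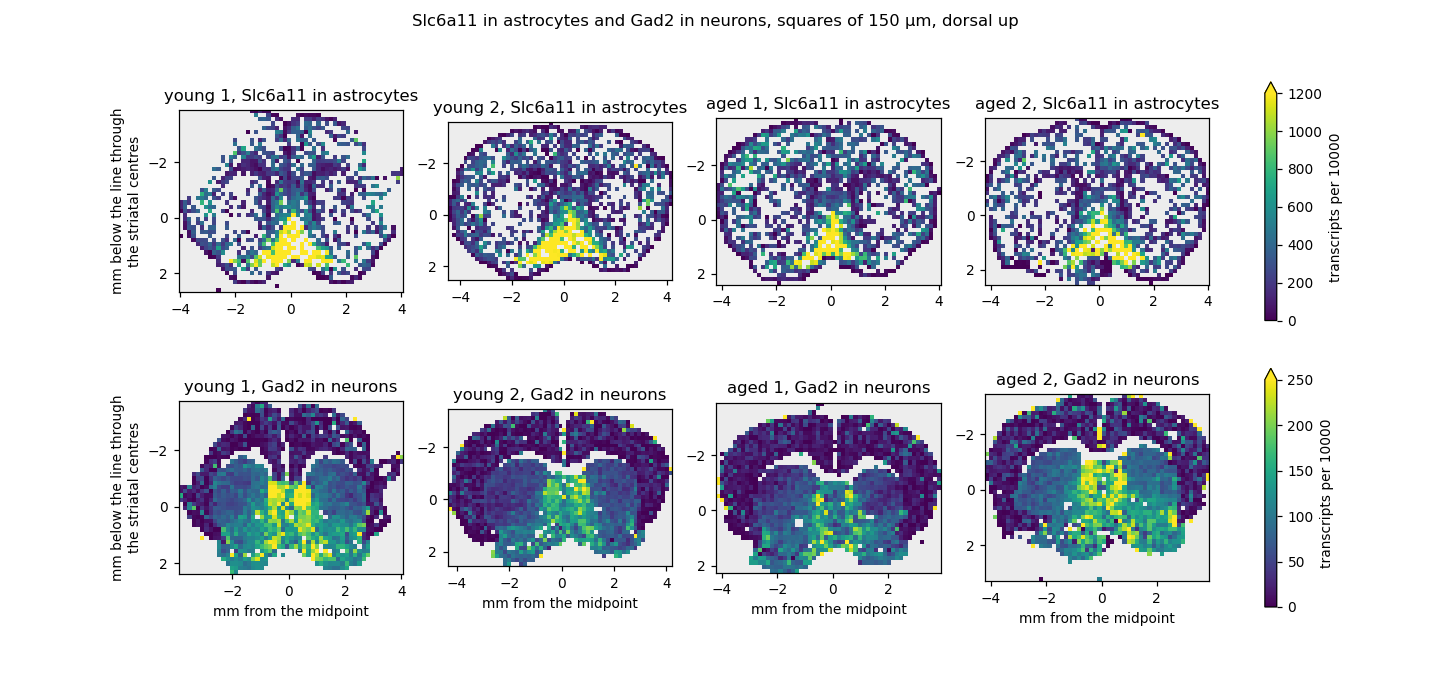
Maps of the 4 sections, dorsal up, with axes in millimetres from the midpoint between the striatal centres; colour gives Slc6a11 in astrocytes (upper row) and Gad2 in all neurons (lower row) in transcripts per 10000, in squares of 150 µm. Slc6a11 is highest in a wedge around the ventral midline and Gad2 in a midline column between the striata and below them.

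The other grey matter held 2 territories that the maps set apart. They were divided, after the data were seen and so with no test, by whether at least 50% of the non-spiny neurons within 150 µm belonged to the Ano1, Egfr and Sst sub-cluster. Astrocytes in the territory poor in those neurons, which is mostly cortex by the maps, held 339, 308, 378 and 294 transcripts of Slc6a11 per 10000 (972 to 1781 cells). In the territory rich in them, which follows the midline between and below the striata, they held 995, 954, 634 and 800 (235 to 419 cells). The ratio between the territories was 1.68 to 3.10. The astrocyte marker list was at 2918 to 3009 in the poor and 2923 to 2960 in the rich territory. The list of 5 oligodendrocyte precursor markers was higher in the rich territory in 4 of 4 sections, at 41.0, 49.7, 33.3 and 40.2 per 10000 against 21.2, 27.01, 25.4 and 22.3, and its part in the Slc6a11 values was not tested.

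Within the midline territory Slc6a11 rose from dorsal to ventral in steps of 1000 µm from the line through the striatal centres. Above that line astrocytes held 459, 427, 352 and 380 per 10000 (160 to 172 cells), over the first step below it 1347, 1165, 1089 and 1097 (24 to 139 cells, 24 in aged 1), and further below 1482, 1405, 1329 and 1246 (49 to 116 cells). The lowest step was 3.23 to 3.77 times the upper one and 7.42 to 14.3 times the white matter. The number of cells per step differed between sections, and its part in the value of the whole territory was not tested. In aged 1, where the whole territory was lowest, 160 of the 235 cells lay in the upper step.

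Neurons of the same territory were rich in Gad2, as the neurons that define it are. They held 199, 153, 152 and 198 transcripts of Gad2 per 10000 against 24.7, 20.2, 19.5 and 29.4 in the rest of the other grey matter, and for Slc32a1 12.7, 17.1, 15.3 and 12.6 against 3.10, 2.34, 2.25 and 2.62. Along the midline their Gad2 did not follow the steps of Slc6a11. The upper step held 238, 183, 141 and 222, the middle step 161, 143, 125 and 183, and the lower step 165, 118, 186 and 171. The order of the steps was thus not the same in all 4 sections, with the upper step highest in 3 of them.

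**Figure D5:**
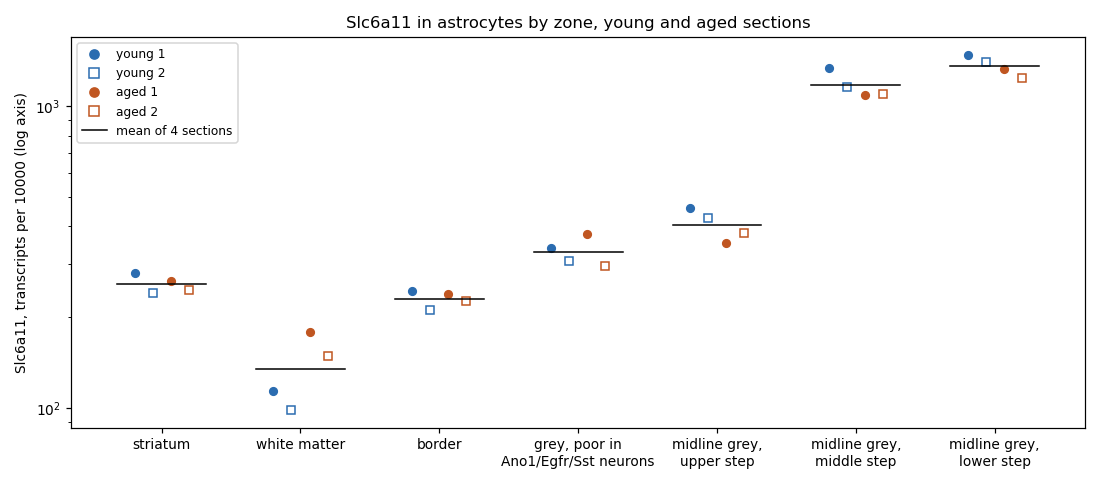
Slc6a11 in astrocytes by zone, in transcripts per 10000 panel transcripts on a log axis; points are sections (blue young, orange aged) and bars are means of 4 sections. The 2 aged sections lie above the 2 young ones in white matter and below them in the 3 midline steps, and they overlap in striatum, border and the grey matter poor in Ano1/Egfr/Sst neurons.

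Between 2 and 18 months Gad2 and Slc32a1 did not pass the test in spiny neurons. The level of Gad2 was 88.3 ± 21.4 in young and 91.3 ± 17.7 in aged sections per 10000 (SD, n = 2 each), a change of 0.07 ± 0.18 on the log2 scale (SE; edgeR, adjusted p = 0.965). Slc32a1 was at 6.50 ± 0.902 and 7.24 ± 0.342, a change of 0.18 ± 0.22 (edgeR, adjusted p = 0.884). The values of the ages overlapped for both genes. Inside the striatum Slc32a1 of the 2 aged sections (7.49 and 7.11) lay above that of the young ones (5.86 and 6.61), as did 18.5% of the genes there, and in the dorsal striatum likewise, as did 21.1%. Of the 383 genes tested in spiny neurons, 0 (0%) passed in edgeR, 23 had an unadjusted p under 0.05, and DESeq2 and limma called 0 as well.

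In non-spiny neurons the change was -0.04 ± 0.22 for Gad2 (adjusted p = 0.999) and -0.18 ± 0.29 for Slc32a1 (adjusted p = 0.965, edgeR), with 1 of 383 genes called (0.261%). Gad2 was at 49.4 ± 10.5 and 46.5 ± 15.2 per 10000 and overlapped. Both aged sections were below both young ones for Slc32a1, at 4.10 ± 0.218 against 4.78 ± 0.0166, as for 17.8% of the genes in this class. Inside the striatum the change of Slc32a1 in non-spiny neurons was 0.06, of the other sign. None of the genes in the lists of GABA lineage, vesicle release and spiny neurons passed the test of age in either neuron class, edgeR calling 0 of 383 and 1 of 383 genes there. In spiny neurons the 2 young sections were further apart in Gad2 (103 and 73.2), and the 2 aged ones too (78.7 and 104), than the means of the ages.

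In astrocytes of the whole section Slc6a11 was at 298 ± 18.6 per 10000 in young and 281 ± 6.88 in aged sections, and the ages overlapped. The change was -0.08 ± 0.13 on the log2 scale (SE; edgeR, adjusted p = 0.895), with 17 of 380 genes called (4.47%; 0.789% higher and 3.68% lower). With the finer clusters it was -0.15 (edgeR, adjusted p = 0.751) with 1 gene called, and without aged 1 7 genes were called. Among the 4 genes of GABA lineage and glutamine supply, whose median was -0.59 against 0.00 over all genes, Dlx6os1 passed. It was at 40.6, 55.9, 11.3 and 15.3 per 10000 in astrocytes and fell by 1.86 on the log2 scale from young to aged sections (edgeR, adjusted p = 4.58e-17). Dlx6os1 is also among the 5 neuroblast markers, of which 3 stood above 1.5 times their level in other cells in this astrocyte cluster. The rule for mixed cells did not use the neuroblast list, so neuroblast-like cells may remain in the class. Their part in the fall of Dlx6os1 was not tested. In white matter astrocytes Dlx6os1 was at 112, 38.1, 3.28 and 9.40, in striatal astrocytes at 28.8, 51.9, 4.41 and 21.7, and in those of the other grey matter at 1.55, 1.59, 2.57 and 2.27, where both aged sections were the higher ones. In the fits limited to each of these zones it did not pass. In white matter astrocytes Meis2 (89.1, 54.4, 29.2 and 36.2), Elavl2 (6.95, 6.01, 1.23 and 2.66) and Gad2 (12.6, 7.52, 3.70 and 3.07) were also lower in both aged sections. The same held for 30.6% of the genes there, whereas Slc38a1 overlapped between the ages. The part of Dlx6os1 and of these genes in the Slc6a11 values was not tested. In striatal astrocytes Slc6a11 was at 261 ± 28.7 and 255 ± 11.3, a change of -0.03 ± 0.14 (edgeR, adjusted p = 0.977), with 1 of 315 genes called (0.317%). The change of the ventral against dorsal difference with age was 0.02 ± 0.16 (adjusted p = 0.99), with 0 of 293 genes called (0%) by edgeR, 8 at an unadjusted p under 0.05, and 0 by DESeq2 and limma. None of the tested genes of astrocyte transport and homeostasis passed in these comparisons.

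By zone the order of the ages was not the same. In white matter both aged sections (179 and 148 per 10000) lay above both young ones (114 and 98.4) for Slc6a11, as for 15.7% of 268 genes there. The change was 0.76 ± 0.21 on the log2 scale in a fit added after the data were seen (edgeR, unadjusted p = 0.00846, adjusted p = 0.175), where 0 genes (0%) passed, 37 had an unadjusted p under 0.05, DESeq2 called 6 and limma 0. Under the stricter rule for mixed cells it was 0.99 and passed (edgeR, adjusted p = 0.0209). With young and aged sections of unlike number paired, the change was 0.76 and passed (edgeR, adjusted p = 0.000211, 41 genes called). That pairing was added after the data were seen and the labels do not give it, so its call carries little weight. The other 13 of 15 alternatives did not pass, with a change as low as 0.52, and leaving out 1 section at a time gave an adjusted p of 0.0703 to 0.702 in edgeR. The dorsal side of the white matter held 111, 98.0, 174 and 151, and the ventral side 149, 101, 206 and 122.

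In the other grey matter both aged sections (410 and 396 per 10000) lay below both young ones (513 and 452) for Slc6a11, as for 19.6% of 358 genes. The change was -0.24 ± 0.13 (edgeR, adjusted p = 0.853), where 0 genes (0%) passed, 21 had an unadjusted p under 0.05, DESeq2 called 1 and limma 0. With the zone drawn at a share of 60% it was 0.08, of the other sign. The aged sections were below the young ones in each of the 3 midline steps, which 2.68% of the 112 genes with at least 40 transcripts in each step share, and overlapped with them in the territory poor in Ano1, Egfr and Sst neurons, at 323 ± 22.3 and 336 ± 59.0.

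The difference between the changes in white matter and other grey matter was tested by an interaction term, also added after the data were seen. It was 1.01 ± 0.16 on the log2 scale (SE; edgeR, section as a block, adjusted p = 0.0404), with 2 of 346 genes called (0.578%). Over 12 alternatives it stayed between 0.77 and 1.19, but 6 of them lost the call, among them those without young 1 (edgeR, adjusted p = 0.837) and without young 2 (adjusted p = 0.118). Against striatal astrocytes the change in white matter differed by 0.83 ± 0.16 (adjusted p = 0.475, 0 of 315 genes called) and that in other grey matter by -0.20 ± 0.08 (adjusted p = 0.593, 0 of 359 genes called), where edgeR gave 23 and 28 genes with an unadjusted p under 0.05 and DESeq2 and limma called 0. Beside the white matter values, the neuron list in those astrocytes was 138, 89.2, 67.1 and 62.1 per 10000 and the microglia list 35.4, 35.1, 56.0 and 41.5, the zone held more cells in the aged sections, and young 1 had the least callosal white matter. Their part in the Slc6a11 values was not tested.

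In glia other than astrocytes, with mixed cells left out, Slc6a11 was higher in both aged sections, at low levels and with no change that passed in the fits of all 4 sections. Oligodendrocyte precursors (309 to 453 cells per section) went from 46.5 ± 0.853 per 10000 in young to 86.3 ± 19.4 in aged sections, a change of 0.82 ± 0.25 in an added fit (edgeR, adjusted p = 0.122, 5 of 226 genes called, 2.21%), and with mixed cells kept it was 0.085. Without aged 1 it was 1.02 and passed (edgeR, adjusted p = 7.14e-05), whereas without aged 2 it was 0.57 (adjusted p = 0.131) and without young 1 0.81 (adjusted p = 0.512). Microglia went from 15.9 ± 0.464 to 28.05 ± 4.87 (0.67 ± 0.21, edgeR adjusted p = 0.231, 2 of 326 genes called, 0.613%), where the fit without aged 2 gave 0.79 and passed (adjusted p = 0.0212), that without aged 1 gave 0.48 (adjusted p = 0.454) and that with mixed cells kept gave 0.39 (adjusted p = 0.316). Oligodendrocytes went from 9.80 ± 0.0398 to 12.8 ± 3.09 (0.30 ± 0.22, edgeR adjusted p = 0.458, 18 of 379 genes called, 4.75%), and the change was 0.01 without aged 1 and 0.54 without aged 2. With mixed cells kept they held 40.7, 39.2, 43.1 and 36.97, and the ages overlapped. Both aged sections were above both young ones for 30.5%, 35.3% and 35.9% of the genes in these classes. The astrocyte marker list moved with them, at 343, 365, 408 and 607 per 10000 in the precursors, 103, 111, 161 and 148 in microglia and 69.3, 74.3, 91.2 and 81.0 in oligodendrocytes. The part of astrocyte transcripts in these Slc6a11 values was not tested. In spiny neurons, where Slc6a11 was lowest, it was 5.16 ± 0.0833 in young and 6.70 ± 1.25 in aged sections without overlap, as for 18% of the genes, and the astrocyte list there was 31.8, 36.2, 48.2 and 41.1.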

How the data were processed

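Sections were grouped by the age in their labels. The authors imaged each section with a panel of 383 genes and decoded the transcripts and segmented the cells with MERLIN, which Vizgen provided. The deposited count is the whole number of decoded transcripts of a gene in a cell, without normalization or cell filter. Cell volume, an imaging signal in cubic micrometres, and cell position were deposited by the authors and used as given. No annotation of cells was used, so class names are rebuilt from markers.

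Following the filter that the paper gives, cells below 10 genes or 50 µm³ were removed. Log-transformed counts were clustered without Gad2, Slc32a1 and Slc6a11 (15 principal components, 20 neighbours, Louvain resolution 0.08 for all cells and 0.3 for neurons alone; python-igraph 0.11.9, scikit-learn 1.9.0). Clusters were named by marker lists. Mixed cells, with at least 3 markers of their own and at least 3 of another class, were left out, which removed from 21.6% of vascular cells to 76.5% of oligodendrocyte precursors. The neuroblast and ependymal marker lists were not used in this rule. No doublet caller was run. The striatum was outlined in squares of 50 µm by a share of spiny neurons of 40%, and zones were assigned by neighbours within 150 µm. The dorsal-ventral axis came from landmarks in the sections, since the files give no orientation.

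Counts were summed per section and group and tested with edgeR 4.0.16 (TMM, filterByExpr, quasi-likelihood test, Benjamini-Hochberg adjustment over all genes tested, threshold 0.05; R 4.3.3). Contrasts within sections had the section as a block. DESeq2 1.42.0 and limma 3.58.1 were alternatives, and the fits were tested on simulated data. An exact permutation test of 2 sections against 2 cannot go below a p of 0.333, so none was run. Shares were compared after thinning each cell to 100 transcripts, leaving out shallower cells. The genes and lists were chosen with earlier results of these data known. The genes named are the 3 genes, the 5 panel genes closest to each over the classes, the leading genes of neuron sub-clusters and the listed genes. Fits described as added, and the midline territory with its steps, were chosen after seeing the data. Some genes that this rule names are not reported here.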

Additional observations from a re-analysis of the deposited data

Results flagged for a closer look

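The change of Slc6a11 with age differed between white matter and other grey matter astrocytes by 1.0150 on the log2 scale (edgeR interaction term, adjusted p = 0.0404), as both aged sections were above both young ones in white matter and below them in other grey matter. Of 12 alternatives 6 lost this call, with an adjusted p of up to 0.837 in edgeR without young 1 and of 0.118 without young 2.

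The ratio of Gad2 in spiny over non-spiny neurons lay on opposite sides of 1 in the striatum (mean 0.6175, below 1 in 4 of 4 sections) and in the other grey matter (mean 3.15, above 1 in 4 of 4 sections). For Slc32a1 the same ratios were 0.5854 and 2.762. The differences between the zones were not tested, and only 134 to 260 spiny neurons per section lay in the other grey matter.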

How the results depend on the processing

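Of 214 alternative values over 16 results, which include the 2 of ventral against dorsal spiny neurons and leave out the other added fits, 193 kept both direction and side of the threshold. The calls that changed direction were those of spiny against non-spiny neurons, at -0.5608 for Slc32a1 and -0.4791 for Gad2 on the log2 scale inside the striatum; that alternative compares other cells. Among those left out, the interaction of age with white against other grey matter kept its call in 6 of 12 alternatives (0.77 to 1.19, edgeR adjusted p from 8.51e-08 to 0.837). With the outline at 50% the ventral against dorsal difference of Slc6a11 was 0.3137 and lost its call. Library totals without TMM gave 0.2074 for Slc32a1 in ventral against dorsal spiny neurons, past the threshold. The other changes of direction were in results that had not passed. The change with age in non-spiny neurons was 0.0583 for Slc32a1 inside the striatum and 0.0470 for Gad2 under the stricter mixed-cell rule. That rule gave 0.0263 for Slc6a11 in all and 0.1605 in striatal astrocytes, and a zone share of 60% gave 0.0808 in other grey matter. The change with age of the ventral against dorsal difference was -0.0386 without TMM, -0.0230 with a filter of 20 genes and 100 µm³, -0.0433 with the outline at 50% and -0.0797 in astrocytes with at least 3 own markers. The cause of these shifts was not tested.

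Leaving out 1 section at a time gave ranges of -0.0325 to 0.3696 (Slc32a1) and -0.1260 to 0.2597 (Gad2) for age in spiny neurons, and -0.4297 to 0.2586 for Gad2 in non-spiny neurons. For Slc6a11 the ranges were -0.1524 to 0.1013 in striatal astrocytes and -0.2271 to 0.3284 for the change of the ventral against dorsal difference. The genes called by age in all astrocytes were 1 with finer clusters, 6 with at least 3 own markers and 7 without aged 1, against 17. Those called by age in striatal astrocytes numbered up to 11 over the alternatives, against 1, and those between ventral and dorsal astrocytes from 3 to 53, against 28.

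Replicate numbers, taken from the sample titles alone since the cell names of the young sections carry other numbers, are shared by the ages, but the same-numbered sections did not deviate together (correlation of -0.42 in spiny neurons, -0.18 in astrocytes). With the replicate block the changes with age were 0.1834 (Slc32a1) and 0.0769 (Gad2) in spiny neurons, -0.1838 and -0.0689 in non-spiny neurons, -0.0768 for Slc6a11 in astrocytes and -0.0254 in striatal astrocytes, with 0, 0, 14 and 3 genes called. The block changed no call of the 3 genes. With the pairing crossed, added after seeing the data, 0, 1, 17 and 11 genes were called, and 41 in white matter astrocytes, against 0.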
